A study of Mus musculus with 2 samples.

Results

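Of the 36132 autosomal regions of open chromatin found in both libraries, 2958 (8.19%) lay more than 100 kb from the nearest transcription start site (TSS) of a protein-coding gene and outside every protein-coding gene body. These far regions were defined by position alone, and overlapping peaks of both libraries were merged into 1 shared region. Starts and gene bodies were those of the GENCODE M21 annotation on mm10. Regions within 500 bp of the start of a long noncoding RNA (lncRNA) gene were left out. A protein-coding gene of the RefSeq annotation overlapped 35 far regions (1.18%). The other autosomal shared regions fell into 14720 promoter regions, 9658 regions in gene bodies and 8796 nearer intergenic regions, between 500 bp and 100 kb from a protein-coding start. The shared regions of all chromosomes numbered 37090.

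The data are DNase-seq, in which the nuclease DNase I cuts the DNA of nuclei wherever chromatin leaves it accessible, and the cuts are sequenced. Both libraries came from female B6CASTF1/J mice, a first-generation hybrid of a laboratory strain and a wild-derived strain, at 25 days of age, from tissue labelled as a layer of hippocampus without naming the layer. They are biological replicates 1 and 2 of 1 group, with the same donor entry in the labels, and whether they came from separate animals is not stated, so the spread between them may be technical. With 1 group of 2 libraries no test over samples was possible, and all values describe these libraries. The tissue is a mixture of cells, so a region open in few cells and a region weakly open in many cannot be told apart. Shared peaks lay within 500 bp of a start of 5 of 8 marker genes of excitatory hippocampal neurons (Neurod2, Neurod6, Emx1, Camk2a and Lingo1), 1 of 5 of oligodendrocytes (Cnp), 0 of 5 of astrocytes, 0 of 5 of interneurons, 0 of 4 of microglia, 0 of 4 of vascular cells, 0 of 3 of choroid plexus and 0 of 7 of cells foreign to the brain.

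Open chromatin far from genes typically holds distal enhancers and sites of the insulator protein CTCF. Enhancers are short stretches bound by combinations of transcription factors that raise transcription from promoters which can lie very far away, often those of developmental regulators surrounded by long gene-poor sequence. CTCF is a zinc finger protein that halts the cohesin complex and so anchors chromatin loops, with sites that are open in most cell types. In hippocampal neurons, basic helix-loop-helix factors of the NeuroD family bind E-boxes and nuclear factor I (NFI) proteins bind short TTGGCA single sites or paired full sites.

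The sequences of selected far regions follow, all of them above the median far signal in both libraries, from the RefSeq copy of GRCm38.p6 (the same assembly as mm10), forward strand, with capitals marking matches to a motif on either strand. The motifs are the CTCF consensus (or, where no exact match was found, a match with 1 mismatch), the NFI full site, the NFI single site TTGGCA, the NeuroD E-box CAGATG, the Ascl E-box CAGCTG, the AP-1 site TGANTCA and the RFX site GTTGCCAT. A match is a description of the letters, not evidence of a bound factor. The first 3 are among the strongest far regions and hold, in this order, a NeuroD E-box with an RFX site, an exact CTCF consensus, and a CTCF consensus with 1 mismatch.
chr1:102628161-102628360: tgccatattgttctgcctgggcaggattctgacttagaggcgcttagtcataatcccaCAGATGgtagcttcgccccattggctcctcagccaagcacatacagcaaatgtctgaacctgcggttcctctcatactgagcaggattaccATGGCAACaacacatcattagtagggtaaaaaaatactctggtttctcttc
chr4:9135881-9136080: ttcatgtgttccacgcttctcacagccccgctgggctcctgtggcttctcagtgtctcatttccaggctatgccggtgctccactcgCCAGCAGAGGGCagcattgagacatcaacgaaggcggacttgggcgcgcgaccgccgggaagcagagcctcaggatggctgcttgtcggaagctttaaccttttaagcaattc
chr3:50906041-50906260: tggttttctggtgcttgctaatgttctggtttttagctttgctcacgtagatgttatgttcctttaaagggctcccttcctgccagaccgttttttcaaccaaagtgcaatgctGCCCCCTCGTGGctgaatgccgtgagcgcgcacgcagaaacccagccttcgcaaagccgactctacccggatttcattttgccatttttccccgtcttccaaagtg
The next 2 show CTCF beside NFI: an exact CTCF consensus before an NFI single site, and an NFI full site before a CTCF consensus whose letters also contain a NeuroD E-box.
chr9:46735661-46735860: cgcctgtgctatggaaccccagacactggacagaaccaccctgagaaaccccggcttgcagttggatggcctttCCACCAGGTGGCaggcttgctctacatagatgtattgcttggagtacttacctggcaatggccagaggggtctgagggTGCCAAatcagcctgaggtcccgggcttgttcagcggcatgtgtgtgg
chr16:55469181-55469340: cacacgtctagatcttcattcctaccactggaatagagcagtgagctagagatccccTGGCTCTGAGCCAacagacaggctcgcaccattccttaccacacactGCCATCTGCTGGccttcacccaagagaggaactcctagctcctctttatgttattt
The next 3 were the strongest far regions of densely occupied gaps between genes, Auts2 to Castor2, Zeb2 to Acvr2a and Kif2a to Ndufaf2, and carry NeuroD E-boxes, NFI single sites, Ascl E-boxes or an NFI full site but no exact CTCF consensus.
chr5:132892681-132892920: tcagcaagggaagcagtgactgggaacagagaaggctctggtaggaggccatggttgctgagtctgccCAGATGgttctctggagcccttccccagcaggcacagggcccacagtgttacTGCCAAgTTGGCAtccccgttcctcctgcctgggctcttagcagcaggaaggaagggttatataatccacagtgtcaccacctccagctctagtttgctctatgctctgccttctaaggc
chr2:45411921-45412120: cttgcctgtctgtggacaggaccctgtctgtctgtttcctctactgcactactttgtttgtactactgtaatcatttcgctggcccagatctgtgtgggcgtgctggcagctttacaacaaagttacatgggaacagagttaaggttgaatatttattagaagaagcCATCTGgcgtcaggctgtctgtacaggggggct
chr13:107831301-107831560: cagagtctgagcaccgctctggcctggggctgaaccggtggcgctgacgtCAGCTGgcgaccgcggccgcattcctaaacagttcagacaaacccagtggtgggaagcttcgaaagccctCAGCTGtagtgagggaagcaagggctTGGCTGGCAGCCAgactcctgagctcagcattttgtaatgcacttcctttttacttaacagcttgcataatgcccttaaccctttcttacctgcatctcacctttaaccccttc
The last 3 are a region in which a stretch with an AP-1 site and a NeuroD E-box is repeated in tandem, and 2 that lie in enhancers listed by the VISTA catalogue of elements tested in transgenic mouse embryos, mm457 and mm1500.
chr10:126511601-126511820: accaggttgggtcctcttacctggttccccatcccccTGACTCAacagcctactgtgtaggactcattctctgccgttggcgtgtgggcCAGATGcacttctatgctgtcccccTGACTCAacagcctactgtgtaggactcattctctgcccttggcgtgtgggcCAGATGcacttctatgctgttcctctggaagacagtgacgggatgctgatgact
chr15:62903061-62903300: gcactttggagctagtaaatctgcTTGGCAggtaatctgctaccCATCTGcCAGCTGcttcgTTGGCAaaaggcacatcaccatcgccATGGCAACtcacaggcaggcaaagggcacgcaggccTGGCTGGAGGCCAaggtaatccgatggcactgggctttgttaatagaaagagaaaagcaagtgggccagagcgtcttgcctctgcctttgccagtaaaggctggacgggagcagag
chr14:66494721-66494980: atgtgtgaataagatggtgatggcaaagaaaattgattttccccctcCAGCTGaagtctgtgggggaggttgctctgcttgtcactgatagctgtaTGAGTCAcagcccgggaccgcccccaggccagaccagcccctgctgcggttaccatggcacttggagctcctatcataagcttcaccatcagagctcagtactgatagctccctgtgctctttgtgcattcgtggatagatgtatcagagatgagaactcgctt

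Far regions were the weakest class of shared region in both libraries. The deposited signal of a peak, a value of peak height whose scaling is not stated, had a median of 1.10 in replicate 1 (interquartile range 0.706 to 2.23) and 0.683 in replicate 2 (0.510 to 0.930). Nearer intergenic regions had medians of 2.5 and 0.930, regions in gene bodies 1.96 and 0.863, and promoter regions 3.43 and 1.44. Ranked among all autosomal shared regions, the median far region stood at percentile 20.4 in replicate 1 and 25.1 in replicate 2, against 49.5 and 45.5 for the median nearer intergenic region. More than every second far region in replicate 1 (56.0%) and 49.5% in replicate 2 fell in the weakest 25% of all regions. The strongest 10% held 110 far regions (3.72% of them) in replicate 1 and 24 (0.811%) in replicate 2.

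The far regions were short and mostly single-copy. Their median width was 200 bp (interquartile range 180 to 258), and 71 reached 500 bp. The 2 widest were chr8:50915281-50916280, with signals of 0.92 and 0.56 in replicates 1 and 2, and chr10:98485781-98486720, with 1.53 and 1.18. Median GC content was 48.5%, against 42.5% in the windows 1000 bp to either side and 51.4% in nearer intergenic regions. In 2786 far regions (94.2%) no 32-base word occurred elsewhere in the genome, and in 28 (0.947%) more than 50% of the words did. The 2 strongest far regions were among those 28: chr8:20122141-20122300 had 22.64 and 8.59, with a median of 3 genome copies per word, and chr3:5860361-5860530 had 18.77 and 22.47, with a median of 7 copies. Whether reads from the other copies contributed to these 2 values was not tested.

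Footprints, short protected stretches within a peak where a bound protein shields DNA from the nuclease, were listed for nearly all far regions. In replicate 1, 97.1% of far regions held a footprint, and in replicate 2, 91.8% (mean 94.4% ± 3.73, SD, n = 2), close to the 95.5% and 92.4% of all autosomal shared regions. Footprints of both replicates coincided, by 50% of the shorter one, in 2122 far regions (71.7%), against 84.9% of nearer intergenic regions. At equal signal percentile in replicate 1 this gap was not seen: among regions without an exact CTCF consensus, shared footprints were in 53.8% of far and 53.5% of nearer regions in the weakest 25%, then in 87.7% and 85.0%, 98.4% and 97.1%, and 100% and 99.9%. At equal percentile in replicate 2 part of it remained among weak regions of this kind. There the shares were 52.3% and 59.0% in the weakest 25%, then 81.4% and 83.7%, 96.1% and 95.2%, and 97.3% and 98.4%. With the longer peak lists the far share was 42.6%. No footprint in either library was listed for 27 far regions (0.913%), close to the 1.07% of nearer intergenic regions and 1.18% of regions in gene bodies. The share was 5.27% of promoter regions and 2.80% of all autosomal shared regions. The most footprints found in both, 6, were in chr2:143217841-143218320 (signals 2.39 and 1.42) and in chr2:117541581-117541780 (2.63 and 0.88), whose window holds an exact CTCF consensus.

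The 10 strongest far regions by mean rank in the 2 libraries included 8 outside mostly repeated sequence. The region chr1:102628161-102628360, printed first above, had a signal of 11.26 in replicate 1 and 5.78 in replicate 2 and lay 2140 kb from the nearest protein-coding start, that of Cdh20, a cadherin cell adhesion gene. Its NeuroD E-box and RFX site lay outside footprints found in both libraries, although the region held 4 such footprints. The region chr4:9135881-9136080, 133 kb from Clvs1, had 16.68 and 3.09, and its CTCF consensus lay inside a shared footprint. The region chr3:50906041-50906260, 318 kb from Noct, which encodes the circadian protein nocturnin, had 14.07 and 3.04, and its near-exact CTCF match lay inside a shared footprint as well. The region chr1:75925821-75926020, between Slc4a3 and Epha4, had 15.18 and 2.93, and its NeuroD E-box overlapped a shared footprint. The region chr10:126511601-126511820, with the tandem AP-1 sites, had 8.23 and 3.89, a rank of percentile 93.8 in replicate 1 and 99.2 in replicate 2. The others were chr1:122357141-122357300 (18.41 and 2.74), which held none of the 7 motifs, chr2:128396041-128396180 (14.29 and 3.11), whose near-exact CTCF match lay in a shared footprint, and chr18:30530181-30530400 (11.35 and 3.46).

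Distance from genes ran from just over the threshold to 2194.6 kb, with a median of 219 kb. There were 424 far regions beyond 500 kb and 83 beyond 1000 kb. The sequence that met the same rule spanned 717 Mb, 29.1% of the autosomes, and held 4.13 far regions per Mb, whereas all shared regions together came to 14.7 per Mb of autosome. Density was lower in each more distant bin, from 6.42 per Mb between 100 and 200 kb to 4.22 between 200 and 500 kb, 2.22 between 500 and 1000 kb and 1.17 beyond 1000 kb. The median signal in replicate 1 went from 1.24 through 1.02 and 0.868 to 0.787 over the same bins, and in replicate 2 from 0.720 through 0.675 to 0.608 in both of the most distant bins. These bins continued a gradient among intergenic regions closer to genes, where density was 17.4 per Mb and median signals were 3.12 and 1.03 between 0.5 and 10 kb.

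**Figure D1:**
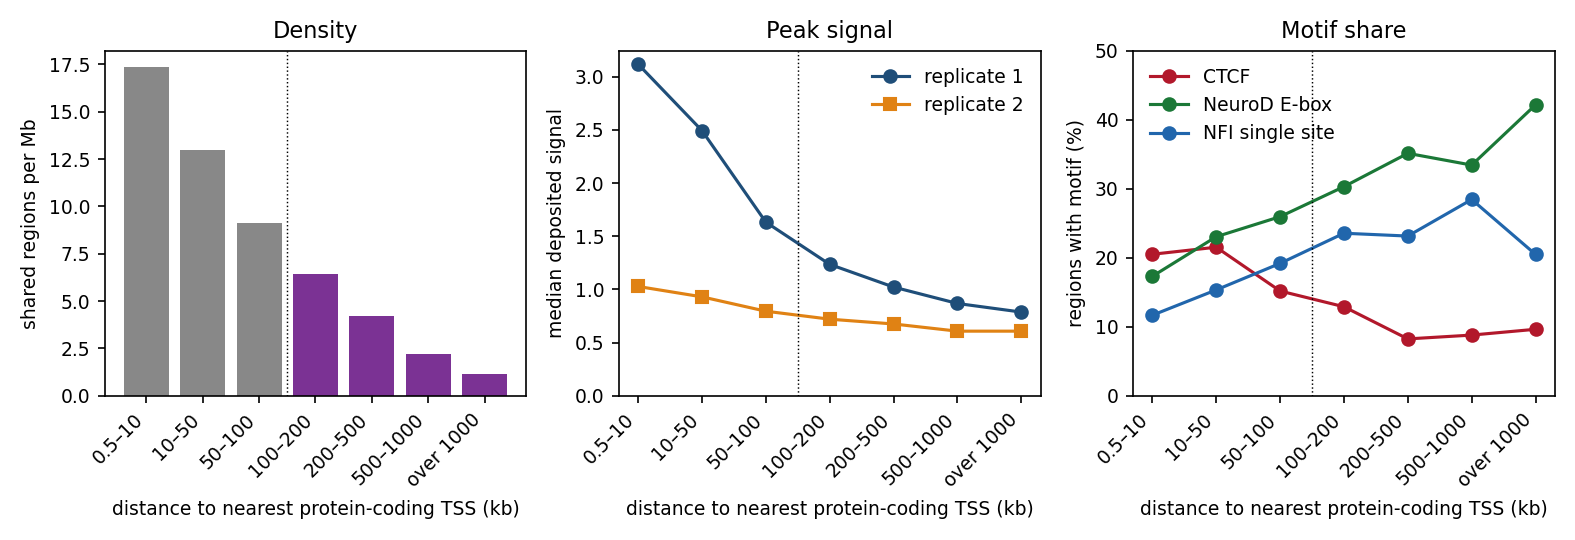
Intergenic shared regions by distance to the nearest protein-coding TSS (kb, horizontal axes): regions per Mb of sequence (left), median deposited signal of replicates 1 and 2 (middle) and percent of regions with a CTCF consensus, NeuroD E-box or NFI single site (right), with the dotted line at 100 kb. Density goes from 17.4 to 1.17 per Mb and median signal from 3.12 to 0.787 in replicate 1, while the share with a NeuroD E-box goes from 17.3% to 42.2%.

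The rule has a sharp edge, and the regions on either side of it had similar ranges of signal. Just above it lay chr5:74944101-74944320, by the smallest margin, near Chic2, with 3.38 and 1.40, chr3:8767301-8768000 near Hey1 with 0.96 and 0.69, and chr1:92360401-92360600 near Ndufa10 with 5.48 and 0.76. Just below it the 3 nearest otherwise eligible regions had 0.80 and 0.64 (near Klf3), 6.82 and 0.94 (near Irx4) and 4.79 and 0.92 (near Ralgapa2). At the other end, chr18:28077661 started the farthest region, followed by chr1:102628161-102628360 and by chr8:50967481-50967660, 2123.5 kb from Tenm3, with 2.57 and 0.36.

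CTCF, NeuroD, Ascl and NFI motifs stood out in the far regions against the sequence beside them. An exact CTCF consensus was found in the central 200 bp of 309 far regions (10.4%), against 0.0712% of 5616 windows of the same length 1000 bp away that touched no peak. The NeuroD E-box was in 975 (33%, beside 14.1% of flanking windows), the Ascl E-box in 626 (21.2%, beside 7.21%) and the NFI single site in 706 (23.9%, beside 10.2%). The NFI full site was in 94 (3.18%, beside 0.267%), the AP-1 site in 236 (7.98%, beside 5.95%) and the RFX site in 57 (1.93%, beside 0.570%). Homeobox TAATTA, at 5.0%, was found less often than in the flanks, at 7.00%. Of the 975 far regions with a NeuroD E-box, 36 had it only inside a CTCF match, and the other 939 were 31.7% of all far regions, while 16 of the 94 NFI full sites overlapped a single site. None of CTCF, NeuroD, Ascl, NFI single and AP-1 was found in 955 far regions (32.3%), whose median signals were 1.24 and 0.690.

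**Figure D2:**
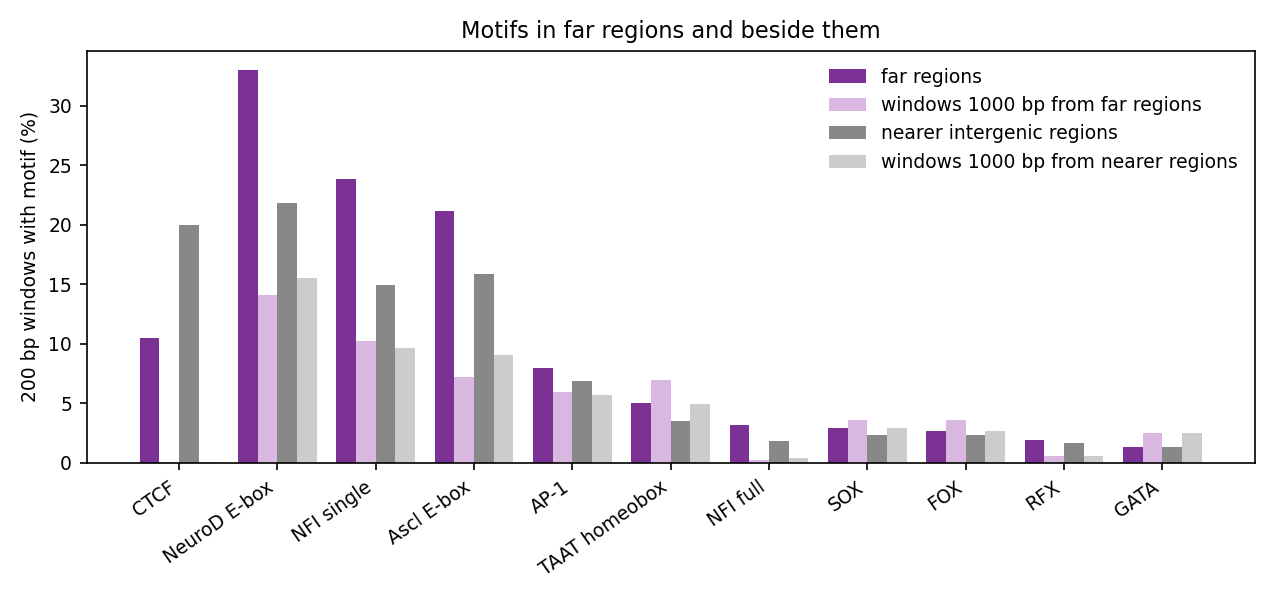
Percent of 200 bp windows (vertical axis) that hold each of 11 motifs (horizontal axis) in far regions, in windows 1000 bp from them, and the same for nearer intergenic regions. CTCF reached 10.4% in far and 19.99% in nearer regions, the NeuroD E-box 33% and 21.8%, and the NFI single site 23.9% and 14.9%.

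The balance of these motifs was not the one of nearer intergenic regions, where 19.99% held the exact CTCF consensus, 21.8% the NeuroD E-box (15.5% of their flanks) and 14.9% the NFI single site (9.67% of their flanks). Because exact CTCF matching misses degenerate sites, 1 mismatch was also allowed, a choice made after seeing the strongest regions: 872 far regions (29.5%) then matched, against 1.35% of flanking windows, and 48.6% of nearer intergenic regions, against 2.40% of theirs. Setting aside every region with such a match left 2086 far and 4522 nearer regions. In these the NeuroD E-box stood at 35.7% of far and 23.7% of nearer regions, the NFI single site at 28.2% and 18.7%, the NFI full site at 4.17% and 2.81%, and the Ascl E-box at 23.3% and 18.6%. The AP-1 and RFX sites came closer, at 9.68% against 8.18% and 2.44% against 2.34%.

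Signal and motif went together, so far and nearer regions were set side by side at equal signal percentile. In far regions of replicate 1 the exact CTCF consensus was in 3.20% of the weakest 25% (n = 1657), 11.2% of the next, 24.3% of the next, 35.1% between percentiles 75 and 90 and 34.5% of the strongest 10% (n = 110). Nearer regions had 6.84%, 13.5%, 25.5%, 34.3% and 33.7% in the same classes, and the shares of far and nearer regions lay close together above percentile 25. In the classes of replicate 2 the far shares were 6.42%, 10.3%, 18.4%, 25.2% and 25.0%, and the nearer shares 11.6%, 18.5%, 25.3%, 28.9% and 20.2%. There the far share was the lower one in all but the strongest 10% (n = 24). In replicate 1 the NeuroD E-box went the other way: far regions had 37.5%, 30.2%, 21.8%, 28.2% and 27.3%, and nearer regions 30.5%, 23.1%, 18.1%, 15.9% and 15.2%. The far share was the higher one in all 5 classes, and also in all 5 classes of replicate 2, where it was 33.5%, 34.0%, 27.8%, 38.6% and 33.3% against 24.5%, 24.1%, 19.8%, 18% and 12.3%. For the NFI single site the far share was higher in 4 of 5 classes of replicate 1, from 27.9% against 21.5% in the weakest 25% to 5.45% against 9.29% in the strongest 10%. In replicate 2 it was higher in all 5 classes, from 26.1% against 18.5% in the weakest 25% to 12.5% against 9.60% in the strongest 10%.

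**Figure D3:**
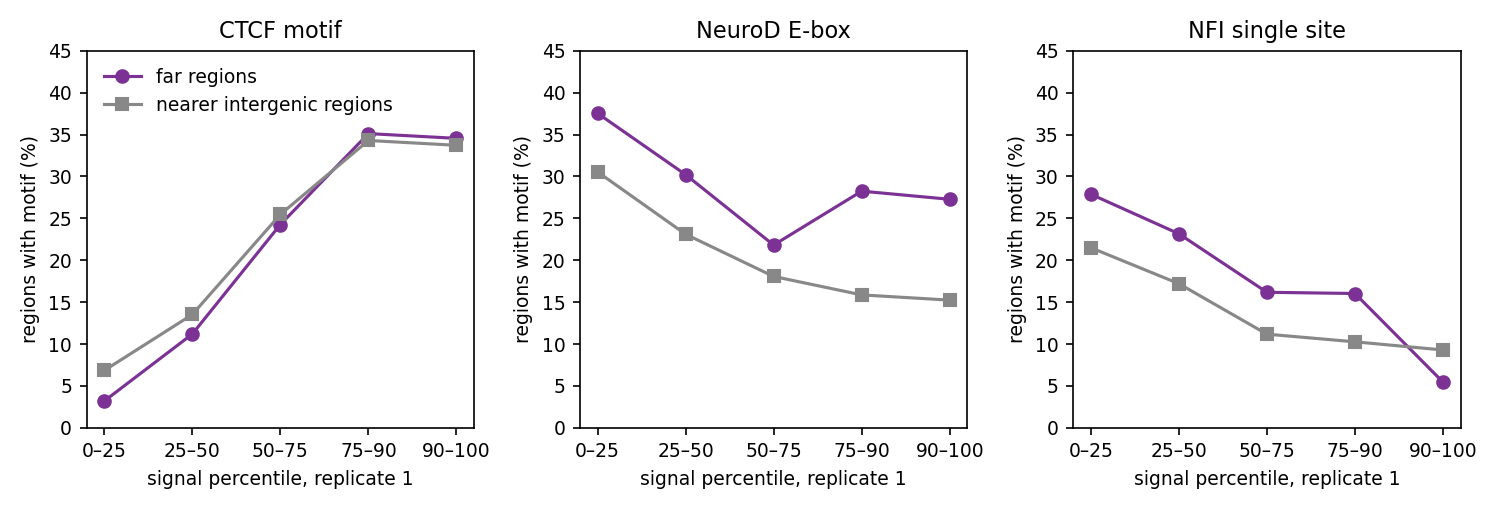
Percent of far (circles) and nearer intergenic (squares) regions with each motif (vertical axes) by percentile of the deposited signal of replicate 1 among all autosomal shared regions (horizontal axes). CTCF shares are 3.20% of far and 6.84% of nearer regions in the weakest class and run close together above percentile 25, up to 34.5% and 33.7%, while the NeuroD E-box share of far regions, 37.5% to 21.8%, lies above that of nearer regions in every class.

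Within the far regions the motif shares also varied with distance. The NeuroD E-box was in 30.3% of regions between 100 and 200 kb, 35.1% between 200 and 500 kb, 33.4% between 500 and 1000 kb and 42.2% of the 83 beyond 1000 kb, while its share in flanking windows stayed between 13.1% and 16.4% over all distance bins. Exact CTCF was in 12.9%, 8.24%, 8.80% and 9.64%. Within the weakest 25% of replicate 1 the NeuroD share was 35.4%, 39.2%, 35.7% and 50.9% (n = 673, 697, 230 and 57), and in intergenic regions within 10 kb of a gene it was 25.7%. Above percentile 50 it was 21.7%, 28.1%, 25.0% and 18.2% (n = 373, 221, 44 and 11), and exact CTCF was in 29.2%, 24.4%, 36.4% and 36.4% of those regions. Neither share rose or fell steadily among these far bins. Within 10 kb of a gene the shares above percentile 50 were 14.6% for NeuroD and 27.9% for exact CTCF (n = 1611).

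The motifs differed in how often they lay under footprints found in both libraries. Such footprints covered 7.98% of the bases in the windows of far regions. They overlapped the match in 91.3% of far regions with a CTCF consensus (282) and in 59.6% of those with an NFI full site (56). For RFX this was 38.6% (22), for NeuroD 30.5% (297), for Ascl 19.6% (123), for the NFI single site 17.3% (122) and for AP-1 8.05% (19). In nearer intergenic regions, where shared footprints covered 12.6% of the window bases, the order was nearly the same. The shares there were 95.4% for CTCF, 67.7% for the NFI full site, 52.3% for RFX and 31.7% for NeuroD. They were 18.8% for Ascl, 19.6% for the NFI single site and 11.2% for AP-1. The far share was the lower one for all of these motifs but Ascl. Longer motifs have more bases to touch a footprint with, and these shares were not adjusted for length. In the sequences printed above, the CTCF and NFI matches of chr9:46735661-46735860 and of chr16:55469181-55469340 all lay in shared footprints, with region signals of 9.15 and 2.66, and of 8.60 and 2.03.

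Far regions with an exact CTCF consensus were stronger than the rest, more so in replicate 1. Their median signals were 2.97 and 0.863, against 1.01 and 0.668 for the 2649 without it, and 93.9% held a shared footprint, against 69.2%. At equal signal percentile in replicate 1 the footprint shares with and without CTCF were 77.4% and 53.8% in the weakest 25%. In the next classes they were 93.2% and 87.7%, 98.0% and 98.4%, and 100% and 100%. By class of replicate 2 they were 81.9% and 52.3%, 97.8% and 81.4%, 100% and 96.1%, and 100% and 97.3%. The strongest 10% of far regions by mean rank (295) held an exact consensus in 30.2% and a match within 1 mismatch in 70.8%, and all held a shared footprint. In the weakest 10% (also 295), exact CTCF was found in 0.678%, the NeuroD E-box in 38.0%, the NFI single site in 28.5% and a shared footprint in 22.4%.

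The libraries ranked far regions alike in part, with a Spearman correlation of 0.686 across the 2958 regions, which are not independent replicates. The correlation was 0.765 over nearer intergenic regions and 0.821 over all autosomal shared regions. Replicate 1 had the higher signal in 87.9% of far regions, 96.2% of nearer intergenic regions and 96.5% of all autosomal shared regions. The median log2 ratio of replicate 1 to replicate 2 was 0.74 in far regions, against 1.41 in nearer intergenic regions. By signal class of replicate 1, from weakest to strongest, far and nearer ratios lay close: 0.37 and 0.46, 1.13 and 1.09, 1.80 and 1.76, 2.15 and 2.12, and 2.35 and 2.27. By class of replicate 2 the far ratio was lower: 0.63 and 0.96, 0.68 and 1.26, 1.35 and 1.69, 1.76 and 1.87, and 1.56 and 1.69. The ratio was 1.79 in far regions with the exact CTCF consensus and 0.66 in those without. Among far regions in the weakest 25% of all regions in replicate 2, those with CTCF had a median of 1.33 in replicate 1 (n = 94) and those without 0.735 (n = 1370). In the next classes of replicate 2 the medians in replicate 1 were 2.81 and 1.23, 4.47 and 2.68, and 7.16 and 6.40. At equal signal percentile in replicate 1, the log2 ratios with and without CTCF lay closer: 0.60 and 0.36 in the weakest 25%, then 1.51 and 1.09, 1.89 and 1.79, and 2.28 and 2.26 in the strongest. A higher signal in replicate 2 was found for 357 far regions (12.1%), against 337 of 8796 nearer intergenic and 1249 of 36132 autosomal shared regions. Those 357 far regions had a median width of 260 bp and held the NeuroD E-box in 44.3%, the NFI single site in 31.4% and exact CTCF in 2.24%.

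**Figure D4:**
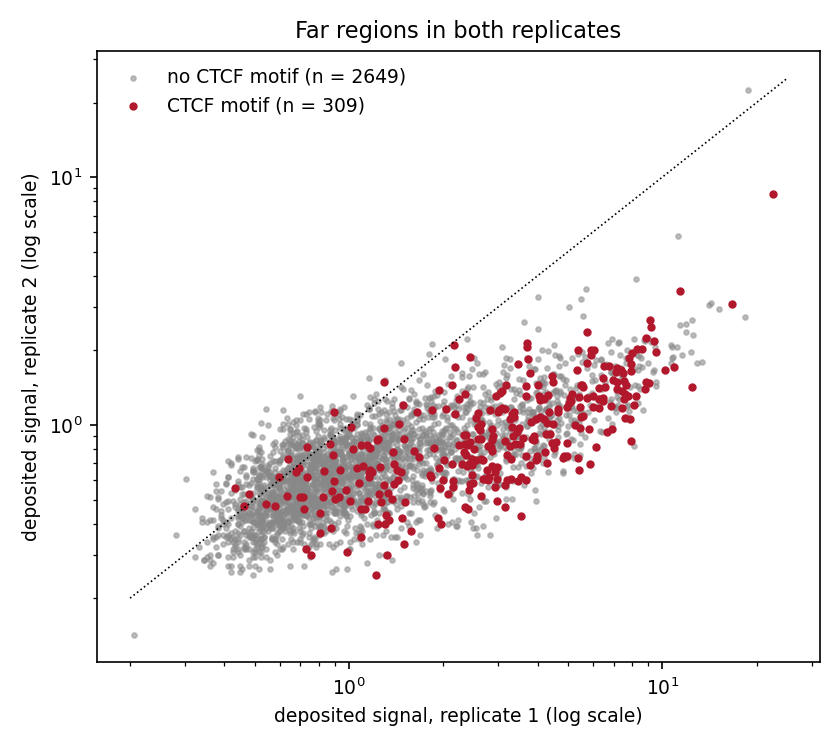
Deposited signal of the 2958 far regions in replicate 1 (horizontal, log scale) and replicate 2 (vertical, log scale), 1 point per region, in red where the central 200 bp holds an exact CTCF consensus, with the dotted line at equal signal. Regions with CTCF (309) lie toward the lower right, with medians of 2.97 and 0.863, and those without have medians of 1.01 and 0.668.

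Counted on the peaks of each library before merging, 4917 autosomal peaks (8.21%) were far ones in replicate 1 and 5646 (11.5%) in replicate 2. Of the far peaks of replicate 1, 61.3% overlapped a peak of replicate 2, close to the 62.3% of nearer intergenic peaks. Of the far peaks of replicate 2, 53.1% overlapped a peak of replicate 1, against 76.4% of nearer intergenic ones. Even with the longer peak list of replicate 1, 25.5% of the far peaks of replicate 2 had no counterpart, against 11.5%.

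Far regions were spread over many gaps between protein-coding genes, with a few dense ones. Eligible sequence was present in 1605 gaps, and 994 held at least 1 far region. Another far region lay within 10 kb of 524 (17.7%), against 33.7% of nearer intergenic regions with another of their kind. These shares were not adjusted for density, which was 4.13 per Mb for far regions and 9.12 to 17.4 per Mb in the nearer distance bins. Counted on the peaks of replicate 1 or replicate 2 alone the far share was 32.2% or 30.9%, and with the longer lists 31.4%. The nearer share was not counted in these ways. By chromosome the density ran from 2.95 per Mb (chromosome 19) to 5.30 (chromosome 2). The 24 gaps with 10 or more far regions held 301 (10.2%) of them. The largest counts, 18 each, were in the gap between Auts2, a large gene active in developing neurons, and Castor2 (13.3 per Mb) and in that between Zeb2, a zinc finger transcription factor of neural development, and Acvr2a, an activin receptor (5.15 per Mb).

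In the Auts2 to Castor2 gap the lowest, median and highest signals were 0.522, 1.10 and 3.27 in replicate 1 and 0.390, 0.686 and 1.70 in replicate 2. All 18 regions were higher in replicate 1, 12 held a shared footprint, and the NeuroD E-box and the NFI single site were each in 6. Its strongest region, chr5:132892681-132892920, carries a NeuroD E-box and a pair of adjacent NFI single sites. The Zeb2 to Acvr2a regions were weaker, with 0.404, 0.673 and 3.41 in replicate 1 and 0.405, 0.536 and 1.34 in replicate 2. The NeuroD E-box was in 7 of them and exact CTCF in 0. Between Celf4, an RNA-binding protein gene, and Pik3c3 there were 16 far regions (3.70 per Mb) with 0.390, 1.01 and 9.23 in replicate 1. Between Kif2a, a kinesin gene, and Ndufaf2 there were 15 in a short span (18.2 per Mb), with 0.529, 1.32 and 4.04 in replicate 1 and 0.338, 0.855 and 1.19 in replicate 2, the highest being chr13:107831301-107831560 with its NFI full site in a shared footprint. Between Slc4a3 and Epha4, an ephrin receptor gene, there were also 15, with 0.449, 0.934 and 15.2 in replicate 1 and 0.435, 0.773 and 2.93 in replicate 2. The ranges of these gaps overlapped one another in both libraries.

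**Figure D5:**
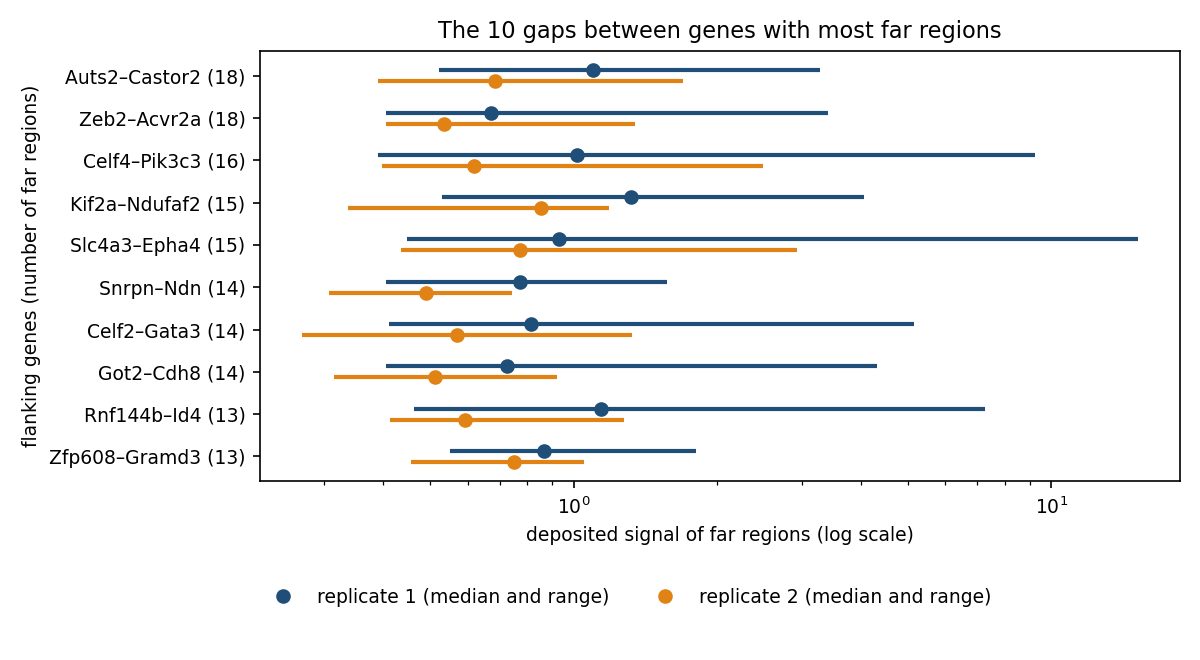
Deposited signal (horizontal, log scale) of far regions in the 10 gaps between protein-coding genes with most of them (vertical axis, flanking genes and number of far regions), with the median as a point and the range as a line for replicates 1 and 2. Medians lie between 0.673 and 1.32 in replicate 1, and 1 region between Slc4a3 and Epha4 reaches 15.2.

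Long gaps were seldom empty. Of 202 gaps with at least 1000 kb of eligible sequence, 196 held a far region and 6 did not. Their median density was 2.29 per Mb (interquartile range 1.21 to 3.96), below the 4.13 per Mb of all eligible sequence. The empty gaps included those between Slitrk5 and Tpm3-rs7, Pot1a and Grm8, Bche and Zbbx, Grin3a and Cylc2, and Mut and Ptchd4, chosen for naming after their values were seen.

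Far regions were also counted per Mb of eligible sequence nearest to genes of 8 lists, against 4.13 per Mb for all genes and 50.1% of all 2614 flanking genes with at least 1. The lists differed in eligible sequence, for example 78.4 Mb at 66 cell adhesion genes and 4.79 Mb at 21 activity-regulated genes. Density was lower farther from genes, and list densities were not adjusted for distance, so they do not compare the lists at equal distance. Forebrain and neural transcription factors had 4.03 per Mb, with at least 1 far region at 37 of 57 genes. Pou3f3, a POU factor of cortical and hippocampal neurons, had 8, with signals from 0.419 to 1.65 in replicate 1. Id4, an inhibitor of basic helix-loop-helix factors, had 7 (0.566 to 2.74), and Sox9, a factor of neural stem cells and astrocytes, had 7 (0.706 to 4.26). Cell adhesion and synapse organisers had the lowest density, 1.73 per Mb over 78.4 Mb, although 45 of 66 genes had at least 1: Tenm3, a teneurin that guides hippocampal wiring, had 10, Cdh8 had 10 and Adgrl3, a latrophilin, had 6. Axon guidance genes had 2.27 per Mb (19 of 29 genes), led by Epha7 with 6 and Efnb2 with 4, while Nrp1, Epha4, Robo1 and Efna5 had 3 each. Ion channels and neurotransmitter receptors had 2.90 per Mb (21 of 47), led by the metabotropic glutamate receptor gene Grm7 with 6, Kcnj3 with 5, and the AMPA receptor gene Gria1 and the muscarinic receptor gene Chrm3 with 4 each.

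Growth factors and their modulators had 4.32 per Mb (23 of 41 genes). Inhba, an activin subunit induced by neuronal activity, had 7, with 0.360 to 4.13 in replicate 1, and Bmp7 had 6 within 75.6 kb, of which 3 held exact CTCF and the highest reached 12.5 in replicate 1. Bmp2 had 5, 4 of them with a NeuroD E-box. The immediate early and activity-regulated list, which includes Inhba, had the highest density, 7.52 per Mb over 4.79 Mb (13 of 21 genes), with 5 far regions each at Gadd45g and Klf4. Glial genes had 4.30 per Mb (3 of 8), with 3 each at Gja1 and Sall1, and genes of cells foreign to hippocampus had 5.30 (4 of 6), with 6 at Foxa2, 4 at Apob and 2 at Ptprc. The nearest gene is a label of position, and which promoter a region acts on was not measured.

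Some far regions coincided with noncoding genes, a feature described after its values were seen. There were 437 (14.8%) within the bodies of 345 lncRNA genes, with 7 in 3110039I08Rik, 5 in Gm13481 and 4 each in Sox2ot and Mir99ahg. The share in lncRNA gene bodies was 10.7% for nearer intergenic regions, 15.4% for promoter regions and 11.1% for all autosomal shared regions. Of the 14 far regions between the imprinted genes Snrpn and Ndn, 5 overlapped microRNA genes of the Mir344 array, an array of 13 genes over 402 kb. These regions, at Mir344b, Mir344c, Mir344, Mir344-2 and Mir344f, were weak, between 0.456 and 0.779 in replicate 1 and between 0.323 and 0.743 in replicate 2. In all, 6 microRNA genes were overlapped by far regions. Near Mir137, a brain-enriched microRNA gene, far regions lay 2.16 kb away (2.38 and 0.998) and 5.06 kb away (5.49 and 0.930), and near Mir124a-2, a precursor gene of the neuronal miR-124, 1 lay 2.71 kb away (2.71 and 1.19).

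Few elements of the VISTA catalogue far from genes were open here. Far regions overlapped 9 elements, which were tested in embryos rather than at 25 days, and 3 of these were recorded as active in forebrain. Of the 110 elements that met the positional rule by their own ends, 7 (6.36%) were overlapped. These were 2 of 29 recorded in forebrain (6.90%) and 5 of 81 not recorded there (6.17%). The other 2 of the 9 reached within 500 bp of the start of an lncRNA gene. Among elements in nearer intergenic sequence 44 of 200 (22.0%) were open, and among all elements counted 104 of 617 (16.9%). These shares were not adjusted for the density of shared regions, which was lower far from genes. The highest signal in replicate 1 was that of chr15:62903061-62903300 in mm457, recorded in neural tube, with 4.12 and 1.49, whose NeuroD E-box and NFI full site lay in shared footprints. The element mm554, recorded in midbrain, held a far region with 2.98 and 1.14, and mm1500, recorded in forebrain, midbrain, hindbrain and neural tube, held chr14:66494721-66494980 with 1.67 and 1.52, the highest in replicate 2.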

How the data were processed

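DNase-seq of 2 libraries was analysed, both of 1 group. The authors deposited, for each library alone, 2 peak lists with a signal per peak, a cut-rate file with p-values given as false discovery rates (FDR), and a footprint list, all on mm10, per the labels. The aligner, the peak caller, the scaling of the deposited signal and the sequencing depth were not given in the sources used here, so signals are set side by side as deposited and by percentile within a library, and no counting error is given. Tested on the files, each peak of the stricter list, used here, reached a deposited p-value (FDR) of 0.001 at 1 base or more; for the longer list this limit was 0.05. The deposited FDR of footprints was constant at 0.01, so footprints were not ranked.

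Peaks of both libraries that overlapped by 1 bp or more were merged, and a region took the highest signal of its peaks in each library. Genes came from GENCODE M21 and sequence from RefSeq, both on GRCm38.p6. Footprints counted as shared when they overlapped by 50% of the shorter one. Both strands of the central 200 bp of each region were searched for 31 consensus motifs, as were windows 1000 bp to each side without a peak of either longer list. Density used the sequence that met the positional rule. Repeated sequence was measured by 32-base words.

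The members, motifs and 8 gene lists were chosen with earlier results of these data known. Regions were named by rule: the 10 strongest by mean signal rank, the 3 farthest, the strongest of the 5 gaps with most far regions, the strongest with each common motif in a shared footprint, the 3 on each side of the threshold, the 2 widest, the 2 with most footprints, and the 3 genes of each list with most far regions. The gap between Snrpn and Ndn, the empty gaps, the microRNA and lncRNA genes and the VISTA elements were named after their values were seen. Alternatives were other distance thresholds, the longer lists, 50% overlap, starts of basic transcripts only, motif windows, neighbour distances, repeat filters, and leaving out each replicate. The tools were numpy 2.4.6 and pandas 2.3.3 for tables, scipy 1.17.1 for statistics and matplotlib 3.10.9 for plots, under Python 3.11.15. The region, distance and motif steps were tested on simulated data. The flanking genes of 1 empty gap are not reported here.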

Additional observations from a re-analysis of the deposited data

How the results depend on the processing

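The 14 values were recomputed under each alternative that bears on them (10 when a replicate was left out, 3 with the whole region as motif window, 1 for each neighbour distance and mismatch limit), and those that moved by more than the spread between replicates follow. No paired analysis was possible because both libraries belong to 1 group. With the longer peak lists there were 6439 far regions (10.8% of regions, 8.99 per Mb) with a median signal of 0.640 in replicate 1, a footprint in 83.2% (replicate 1), 74.1% (replicate 2) and 42.6% (both), CTCF in 6.29% and a neighbour within 10 kb for 31.4%. Beyond 50 kb there were 4657 (12.9%, 5.16 per Mb) at median percentiles 25.2 and 28.5, with the NFI single site in 22.2% and a neighbour for 21.3%. Beyond 200 kb there were 1625 (4.50%, 3.19 per Mb) at median percentile 16.3 in replicate 1, with CTCF in 8.43% and a neighbour for 15.4%. With basic transcripts alone a neighbour was found for 19.2%, and within 5 kb and 20 kb for 12.9% and 25.3%. The whole region as motif window gave the NFI single site in 26.3%. Allowing 1 and 2 mismatches, chosen after seeing the data, put CTCF at 29.5% and 51.3%. All 14 values moved less than the spread with 50% overlap, without mostly repetitive regions and, an alternative also chosen after seeing the data, without regions of repeated words.

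Leaving out replicate 1 or replicate 2 in turn means counting the peaks of the other library alone. That gave 4917 to 5646 far regions, 8.21% to 11.5% of regions, 6.86 to 7.88 per Mb, CTCF in 6.31% to 8.77%, the NeuroD E-box in 29.7% to 36.1%, the NFI single site in 22.1% to 24.2% and a neighbour for 30.9% to 32.2%. Replicate 1 alone had a median signal of 0.860, median percentile 24.9 and a footprint in 91.3%, and replicate 2 alone 0.525, 21.7 and 78.3%. The causes of these differences were not tested. Depth is unknown, so which weak far regions a deeper library would add cannot be said.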
